A study of Mus musculus with 4 samples.

Results

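Molecular chaperones bind unfolded or newly made proteins and help them reach their folded form, and 37 genes of these families were examined in fetal mouse brain after their mothers went short of food. They were taken from the array by gene name, current or older, out of 28104 gene and transcript names, and were grouped by where their proteins work: 16 in the cytosol and nucleus, 3 in the mitochondrion and 18 in the endoplasmic reticulum. The samples were pools of fetal brain RNA from C57BL/6J mice, with 5 fetuses in each. In the food deprivation group (FD) the dams had no food overnight on gestation day 17, and in the food restriction group (FR) intake was held at 50% of what control dams ate, between gestation days 10 and 17, with caesarean section on day 18 (the day of section is given for FR only). Each treated pool was set against a control pool from dams fed ad libitum on 2 two-colour Agilent arrays with the dyes exchanged, so that array 1 carried the treated RNA in red (Cy5) and array 2 carried it in green (Cy3). All 4 arrays lay on 1 slide. The labels do not state whether FD and FR share a control pool. The log2 signal of skeletal muscle markers averaged 9.25 in the control of FD and 7.92 in that of FR.

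The heat shock response is driven by the transcription factor Hsf1, which switches on cytosolic Hsp70, Hsp90 and small heat shock proteins when unfolded protein accumulates there. The endoplasmic reticulum, where secreted and membrane proteins fold, has a separate circuit, the unfolded protein response: its sensors act through the transcription factors Atf6, Xbp1 and Atf4, and Atf6 and Xbp1 raise the Hsp70 protein Hspa5 (BiP), the Hsp90 protein Hsp90b1 (Grp94), the lectins calreticulin (Calr) and calnexin (Canx) and the disulphide isomerases. Developing neurons make much membrane and secreted protein and express most of these genes.

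Each treated pool is 1 sample, and the 2 arrays of a comparison are repeat measurements of the same 2 RNA extracts, so no test across animals was possible and no p-value is given. Values are log2(treated/control), so that a negative value means less mRNA in the treated pool. A gene counts as passing when it differs at least 1.5-fold in the same direction on both arrays, and the error is the distance of either array from their mean. Over all genes the SD of this distance was 0.125 in FD and 0.129 in FR, and it covers measurement only, not differences between litters. Fewer cells of a type and less RNA per cell cannot be told apart in such pools. Between 71.4% and 85.3% of the 43379 spots of a channel lay well above background, and no spot of a chaperone gene was saturated.

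With the loess dye correction, most measured chaperone genes lay below their control in both comparisons. The counts with median centring are given in the next paragraph. In FD 33 of the 37 genes could be measured, and 23 of them lay below 0 on both arrays (69.7%), against 23.2% of the 17945 genes measured. Both arrays were above 0 for Bag3 and Dnajb9 (6.06% of members, 25.8% of all genes). None of the 33 passed 1.5-fold, where 0.128% of all genes passed as lower and 0.0947% as higher. In FR 26 could be measured, and 17 lay below 0 on both arrays (65.4%), against 27.9% of 18541 genes. No member lay above 0 on both FR arrays (28.0% of all genes). In FR 3 members passed as lower, Hspa4, Sdf2l1 and Pdia4 (11.5% of members, 0.453% of all genes), and none as higher (0.572% of all genes).

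The median over measured members was -0.21 in FD (-0.18 on each array) and -0.24 in FR (-0.19 and -0.25), where all genes had medians of 0.01 and 0.00. By location, the endoplasmic reticulum members had medians of -0.27 in FD (15 genes, 12 below 0 on both arrays) and -0.24 in FR (11 genes, 9 below 0 on both). Cytosolic and nuclear members had medians of -0.16 in FD (15 genes, 10 below) and -0.35 in FR (13 genes, 7 below). The mitochondrial members had medians of -0.03 in FD (3 genes) and -0.09 in FR (2 genes). The order of the groups in FR depends on the bright spots described next: with those spots kept the endoplasmic reticulum medians were -0.27 in FD and -0.35 in FR over 18 genes, and the cytosolic ones -0.11 and -0.26 over 16. The direction on single arrays rests on the loess dye correction: with plain median centring the medians were -0.14 in FD and -0.33 in FR, but only 1 and 6 members lay below 0 on both arrays, and 0 passed in FR. The share of all genes was not counted under median centring, so these counts have no background to be read against.

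**Figure D1:**
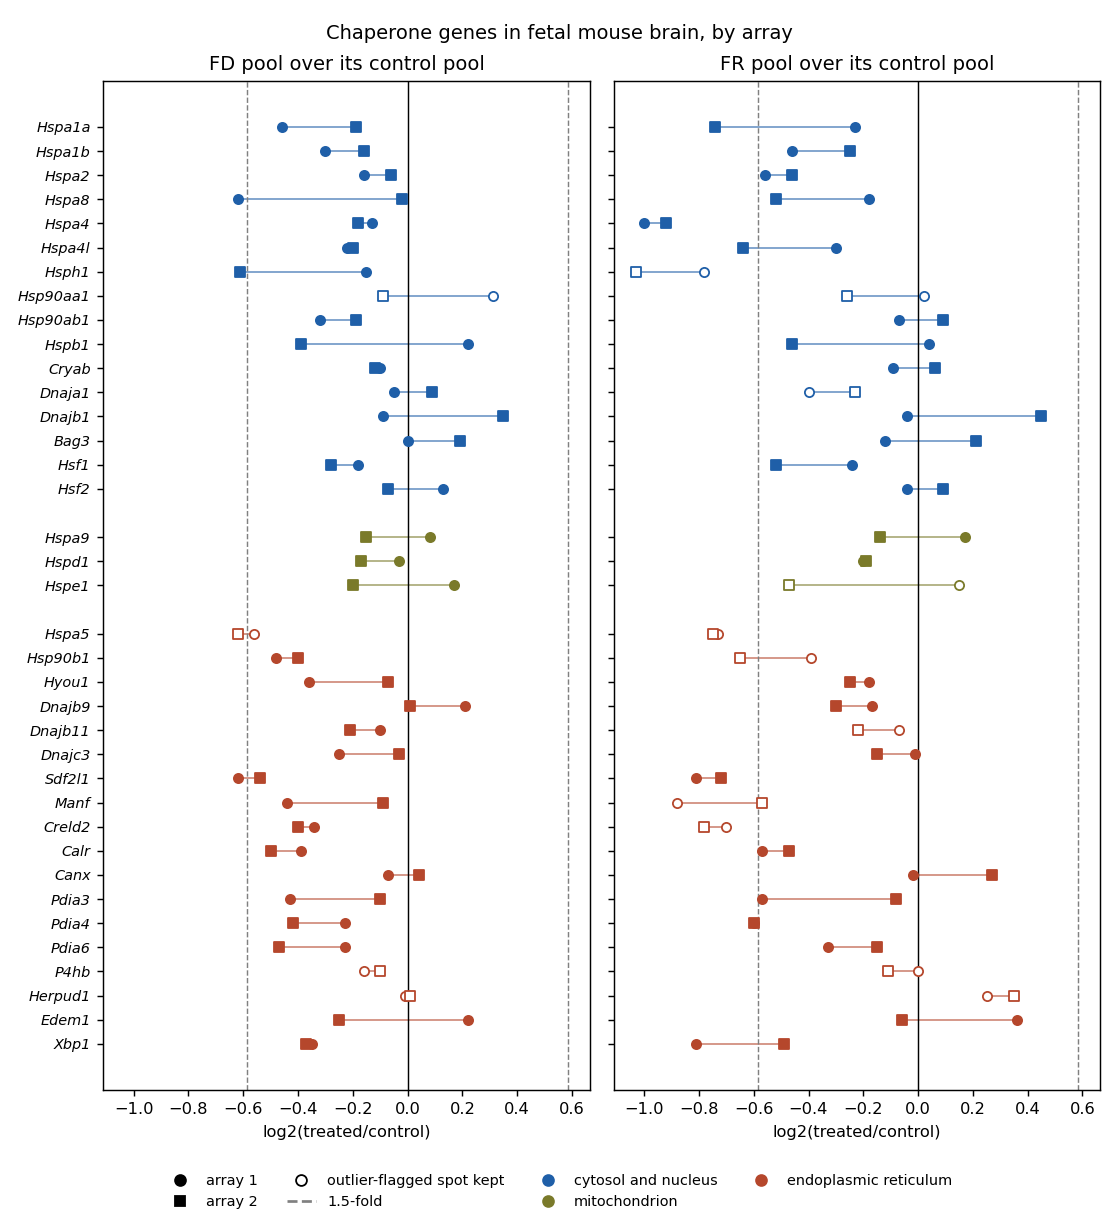
Log2(treated/control) of the 37 chaperone genes on array 1 (circles) and array 2 (squares), FD at left and FR at right, one gene per line, coloured by location of the protein. Filled symbols are the brightest measured probe, open symbols are genes whose spots carried an outlier flag and are shown with those spots kept, and dashed lines mark 1.5-fold. In FR only Hspa4, Sdf2l1 and Pdia4 have both filled symbols beyond the left dashed line.

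Many of the genes without a measured value are among the brightest. The scanner software marks a spot whose pixels are uneven, and these spots were left out. The mark fell almost only on the green channel (1521 to 3446 spots per array, against 1 to 21 in red) and mostly on bright spots. A rarer mark for population outliers (65 to 100 spots per channel) was treated alike. With spots ranked by red signal, the 2 marks together covered 39.2% and 25.8% of the brightest decile on the FD arrays. On the FR arrays they covered 36.1% and 58% of it, and in the 8 dimmest deciles under 1%. Of the 73 probes of chaperone genes these marks removed 15 in FD and 24 in FR, while 2 were too dim in each. All probes of Hspa5, Hsp90aa1, P4hb and Herpud1 were lost in both comparisons, and in FR also those of Hsph1, Dnaja1, Hspe1, Hsp90b1, Dnajb11, Manf and Creld2. With marked spots kept, a choice made after seeing the data, all 37 genes had a value. Members below 0 on both arrays were then 23 in FD (62.2%, against 22.7% of all genes) and 23 in FR (62.2%, against 28.2%), and those passing as lower were 0 in FD (0.13% of all genes) and 7 in FR (18.9%, against 0.511%): Hspa4, Sdf2l1, Pdia4, Hspa5, Creld2, Calr and Hsph1. Values from marked spots are named as such from here on.

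**Figure D2:**
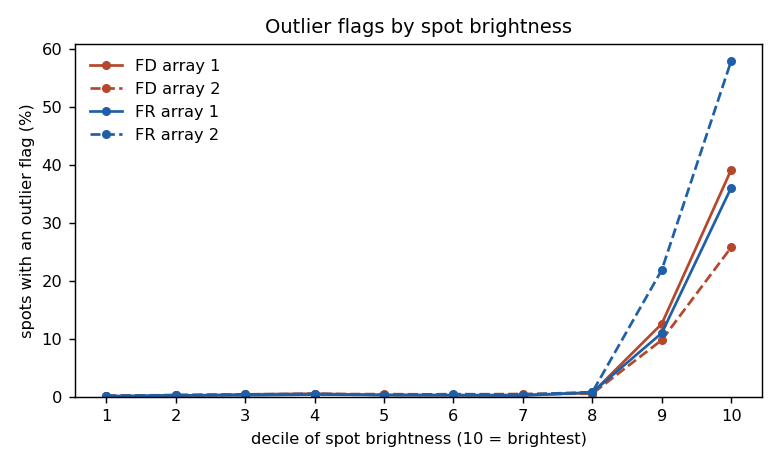
Share of spots with an outlier flag in each decile of spot brightness, taken as the red signal (10 is brightest), FD arrays in red and FR arrays in blue, array 1 solid and array 2 dashed. The share stays under 1% up to the eighth decile and reaches 25.8% to 58% in the brightest.

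Promoter letters are shown for the members that hold the endoplasmic reticulum stress element, because the element was found in no cytosolic or mitochondrial member. The endoplasmic reticulum stress element, through which Atf6 with the CCAAT-binding factor NF-Y acts, was searched as CCAAT, then 9 bases of any kind, then CCACG, on both strands, in RefSeq windows of 250 bases before to 50 after each start (GRCm38.p6). Windows were found for 29 of the 37 members, all but Hspa8, Hsp90aa1, Hsp90ab1, Cryab, Hsf1, Hspa9, Hyou1 and Manf. The element was in 7 of the 29 (24.1%), all of them endoplasmic reticulum members, of which 16 had a window and 9 of these no match, against 37 of 27025 genes in the table (0.137%) and 39 of 32851 windows (0.119%). Its matches follow, each read in the direction of the element with 20 bases on either side, the fixed letters in capitals.
Hspa5, chr2:34772005-34772063, plus strand: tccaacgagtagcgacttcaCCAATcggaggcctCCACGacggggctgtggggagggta
Hsp90b1 far match, chr10:86705618-86705676, minus strand: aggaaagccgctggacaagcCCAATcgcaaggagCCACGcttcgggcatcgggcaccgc
Hsp90b1 near match, chr10:86705513-86705571, plus strand: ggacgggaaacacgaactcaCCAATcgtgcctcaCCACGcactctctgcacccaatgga
Calr, chr8:84847055-84847113, plus strand: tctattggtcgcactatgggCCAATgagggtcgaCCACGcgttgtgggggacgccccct
Creld2, chr15:88819500-88819558, minus strand: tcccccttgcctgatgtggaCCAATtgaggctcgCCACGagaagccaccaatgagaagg
Pdia6, chr12:17266471-17266529, plus strand: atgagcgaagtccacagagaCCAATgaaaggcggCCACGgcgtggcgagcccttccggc
Dnajc3, chr14:118937807-118937865, plus strand: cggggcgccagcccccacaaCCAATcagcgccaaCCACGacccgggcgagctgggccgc
Canx, chr11:50325780-50325838, minus strand: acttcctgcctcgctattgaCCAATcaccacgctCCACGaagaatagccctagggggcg

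The element lay nearest the start in Hspa5, with its first base at -65 relative to the start, and farthest in the far match of Hsp90b1, at -212. It ran with the gene in Hspa5, Pdia6, Dnajc3, Canx and the far Hsp90b1 match, and against it in Calr, Creld2 and the near Hsp90b1 match. The unfolded protein response element, searched only as TGACGTGG on either strand, was in 0 of the 29 members and in 0.714% of genes. Other forms of it were not searched, so a member may still hold one. The heat shock element, to which Hsf1 binds, was searched on both strands as GAA, 2 bases, TTC, 2 bases, GAA, or the same beginning with TTC, and was in 3 of the 29 members (10.3%), Hsph1, Hspd1 and Hspe1, against 0.662% of genes. In Hsph1 it lay after the start. Imperfect or other forms of the heat shock element were not searched, so a member without a match may still hold one. Hspa8, Hsp90aa1 and Hsp90ab1, among others, had no window to search. Hspd1 and Hspe1 are transcribed away from each other, and their windows hold the same pair of overlapping matches, shown in capitals in the direction of Hspe1.
Hspe1 and Hspd1, chr1:55088039-55088096, plus strand: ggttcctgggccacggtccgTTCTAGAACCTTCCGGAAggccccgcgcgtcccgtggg

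The genes with the stress element had medians of -0.36 in FD (6 measured, 5 below 0 on both arrays) and -0.16 in FR (4 measured, 3 below). The endoplasmic reticulum members with a window and no element had medians of -0.26 in FD (7 measured, 5 below) and -0.46 in FR (6 measured, 5 below). With marked spots kept the order in FR turned: the 7 genes with the element had medians of -0.38 in FD and -0.52 in FR, and the 9 without it -0.17 and -0.24, with 6 of each set below 0 on both arrays in each comparison. No order between the sets is read from these values. Sdf2l1 and Pdia4, both of which passed in FR, are among these 9. Of the 30 genes outside the group that hold the element, 15 were measured. Their medians were -0.01 in FD and -0.01 in FR, with 3 and 4 below 0 on both arrays, and with marked spots kept -0.05 and -0.01, with 4 below in each. Other forms of the stress element were not searched, so a gene without a match here may still hold one. A match is a description of the letters, and binding was not measured.

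Hspa5, the central Hsp70 of the endoplasmic reticulum and the holder of its stress sensors in the resting state, was lower in both treated pools by its 1 probe, which carried the mark on array 2 of each comparison. With marked spots kept it lay at -0.56 and -0.62 on the FD arrays and at -0.73 and -0.75 on the FR arrays. Its log2 signal averaged 12.33 in the FD pool against 12.92 in its control, and 12.32 in the FR pool against 13.06 in its control. Both treated pools thus lay below both controls, and the unmarked array 1 alone gave -0.49 in FD and -0.66 in FR.

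Hsp90b1, the Hsp90 of the same compartment, lay at -0.48 and -0.40 in FD on its brighter probe (level 13.23 against 13.67). In FR both its probes were marked and gave -0.39 and -0.65 (brighter) and -0.55 and -1.04 with marked spots kept. The dimmer probe, marked on array 2, gave -0.81 and -0.79 in FD, past 1.5-fold on both arrays. All 8 of these values are negative. Hyou1, an Hsp110-like exchange factor for Hspa5, was at -0.36 and -0.07 in FD and -0.18 and -0.25 in FR.

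Sdf2l1, which works with the J protein Dnajb11 on Hspa5 clients, had the lowest value of any measured endoplasmic reticulum member in each comparison. It lay at -0.62 and -0.54 in FD (mean -0.58, array 2 short of the limit) and at -0.81 and -0.72 in FR (1.69-fold lower). Its level was 8.30 in the FD pool against 8.88 in the control, and 8.16 in the FR pool against 8.92. The treated and control levels did not overlap between arrays in either comparison. The same held for Pdia4 and Xbp1 and, with marked spots kept, for Hspa5, Calr and Creld2. How many of all genes show this was not counted. The scanner software's own log ratios put it past 1.5-fold in FD too (-0.77 and -0.65). In FR it no longer passed when the background model was fitted on all spots, or with plain median centring, as described further on.

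The J proteins, which deliver clients to Hspa5, lay nearer 0. Dnajb11 was at -0.10 and -0.21 in FD and, on a marked spot in FR, at -0.07 and -0.22. Dnajc3 had 4 probes with means from -0.23 to -0.01 in FD and from -0.25 to 0.14 in FR, so its direction in FR depends on the probe. Dnajb9 was the member whose brightest probe lay above 0 in FD (0.21 and 0.01) and below 0 in FR (-0.17 and -0.30). Its level was 9.77 in the FD pool against 9.66 in its control, and 9.52 in the FR pool against 9.76. The other probes of Dnajb9 had means of -0.10 and 0.07 in FD and of -0.03 and -0.07 in FR, so the higher FD value was not common to all of its probes.

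Manf, a small protein of the compartment that is also secreted and protects neurons, was at -0.44 and -0.09 in FD, and at -0.88 and -0.57 in FR with its marked spot kept. Creld2, another Hspa5-associated secretory protein induced by stress of the compartment, was at -0.34 and -0.40 in FD (11.82 against 12.19), and at -0.70 and -0.78 in FR with its marked spot kept. The levels of Creld2 were 11.66 in the FR pool and 12.40 in its control. Creld2 passed 1.5-fold in FR only on the scale with marked spots, and Manf fell short on array 2.

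The lectin chaperones hold glycoproteins while they fold. Calr, the soluble one, was at -0.39 and -0.50 in FD on its brighter probe (11.69 against 12.13) and at -0.47 and -0.29 on the dimmer. In FR the dimmer probe gave -0.57 and -0.47 (8.20 against 8.72), and the brighter, marked on both arrays, gave -0.72 and -0.62. All 8 values were negative. Canx, its membrane-bound relative, was at -0.07 and 0.04 in FD and -0.02 and 0.27 in FR on its brightest probe, while its other measured probes had means of -0.19 and -0.15 in FD and of -0.25 in FR. Pdia3, the isomerase that partners both lectins, was at -0.43 and -0.10 in FD and at -0.57 and -0.08 in FR, with array 1 lower than array 2 in both.

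Among the other disulphide isomerases, Pdia4 was at -0.23 and -0.42 in FD (8.88 against 9.2) and at -0.60 and -0.60 in FR (8.61 against 9.21, 1.52-fold lower). It was one of the 3 genes that passed in FR, by a margin smaller than the typical distance of an array from the mean. Pdia6 was at -0.23 and -0.47 in FD, and at -0.33 and -0.15 in FR on another of its probes. Its 4 probes had means from -0.36 to -0.05 in FD and from -0.52 to -0.20 in FR with marked spots kept. P4hb, the founding member of the family, was on a marked spot and lay at -0.16 and -0.10 in FD and at 0.00 and -0.11 in FR.

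Xbp1, the transcription factor that the sensor Ern1 activates by splicing its mRNA, was at -0.35 and -0.37 in FD and at -0.81 and -0.49 in FR. Its level was 9.27 in the FD pool against 9.63, and 9.08 in the FR pool against 9.73. It missed 1.5-fold in FR on array 2, and its probe does not separate spliced from unspliced mRNA as far as the files tell. Edem1 and Herpud1, which act in disposal of misfolded protein, did not lie below 0 on both arrays in either comparison. Edem1, which directs glycoproteins to degradation, was at 0.22 and -0.25 in FD and 0.36 and -0.06 in FR. Herpud1, a stress-induced scaffold of the degradation complex, was at -0.01 and 0.01 in FD and 0.25 and 0.35 in FR on a marked spot. The other 2 probes of Edem1 had means from -0.03 to 0.01.

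**Figure D3:**
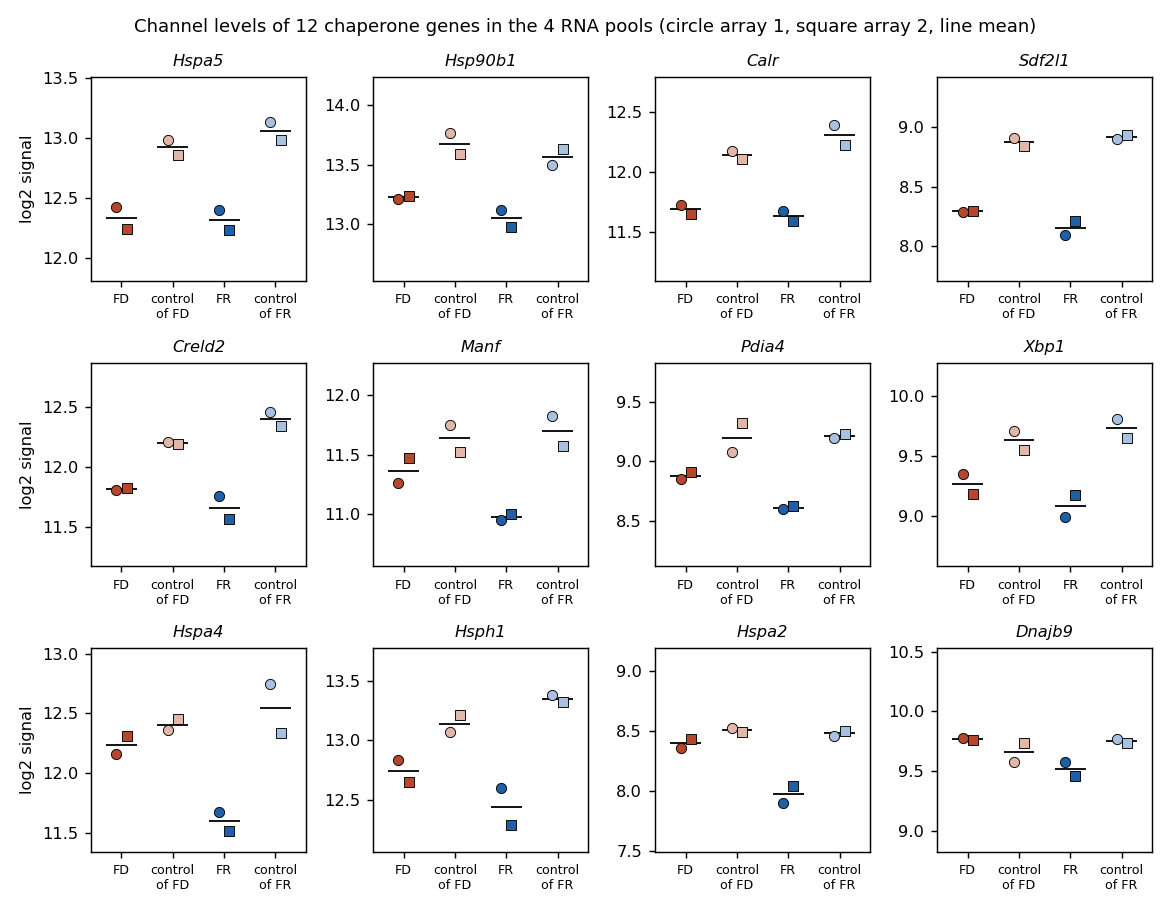
Log2 channel signal of 12 chaperone genes in the FD pool, its control, the FR pool and its control, on array 1 (circles) and array 2 (squares), with the mean as a line and marked spots kept. Each panel spans the same height, and levels may be compared within a panel only. By mean level both treated pools lie below both controls in every panel but that of Dnajb9. On the probes drawn for Hspa4 and Hspa2 the FR pool stands apart from the other 3.

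In the cytosol, Hspa4, an exchange factor of the Hsp110 family that releases clients from Hsp70, had the largest value of any member, but its 4 probes went different ways. The brightest (A_51_P200477, chr11:53073347-53073406, minus strand, mm9) lay at -0.13 and -0.18 in FD and at -1.0 and -0.92 in FR (1.95-fold lower), with levels of 11.59 in the FR pool and 12.55 in its control. The second brightest, A_51_P460676, lay on the other side of 0: 0.45 and 0.36 in FD, and 1.11 on the unmarked array 1 in FR, or 1.08 and 0.65 with the marked spot kept. Its 60 bases align over 514 bases of the genome, chr11:53075923-53076436, so it spans a gap in the alignment. A_52_P571987 was at 0.11 and 0.04 in FD and -0.03 and -0.18 in FR, and A_52_P617817 at -0.53 and -0.10 in FD and -0.12 and -0.02 in FR. Over the 3 measured probes Hspa4 averaged -0.38 in FR and did not pass, so the FR call rests on 1 probe of the gene. That probe is A_51_P200477, whose letters are not shown. The gapped probe and the dim probe A_52_P617817, farther towards the 5′ end, are shown because they lay on opposite sides of 0 in FD. In FR A_52_P617817 was near 0.
Hspa4 A_51_P460676, chr11:53075923-53076436, minus strand: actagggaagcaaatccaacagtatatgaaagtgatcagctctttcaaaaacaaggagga
Hspa4 A_52_P617817, chr11:53094143-53094202, minus strand: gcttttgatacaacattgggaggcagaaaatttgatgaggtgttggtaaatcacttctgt

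Hspa4l, its close relative, was at -0.22 and -0.20 in FD and -0.30 and -0.64 in FR, and its 4 probes had means from -0.21 to -0.13 in FD and from -0.52 to -0.04 in FR. Hsph1, of the same family, was at -0.15 and -0.61 in FD. In FR its 1 probe was marked on array 2 and gave -0.78 and -1.03 with the spot kept, against -0.71 on the unmarked array alone, with levels of 12.45 in the FR pool and 13.35 in its control.

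Hspa1a, the stress-inducible Hsp70, has 2 probes that share 30 bases (chr17:35106796-35106825, mm9). One lay at -0.46 and -0.19 in FD and at -0.63 and -0.60 in FR, past 1.5-fold on both FR arrays. The other, a little brighter, lay at -0.23 and -0.74 in FR and, marked on both arrays, at -0.02 and -0.65 in FD. All 8 values were negative, and the gene passed in FR by one probe and not by the other. Hspa1b, whose coding sequence is nearly identical to that of Hspa1a so that RNA of either may bind its probe, was at -0.30 and -0.16 in FD and at -0.46 and -0.25 in FR.

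Hspa2, an Hsp70 best known from germ cells, was at -0.16 and -0.06 in FD and at -0.56 and -0.46 in FR, with levels of 7.97 in the FR pool and 8.48 in its control. Hspa8, the abundant constitutive Hsp70, was at -0.62 and -0.02 in FD and at -0.18 and -0.52 in FR on different probes, so its arrays lie farther from their mean than is typical. Its sequence also has near-identical copies in the genome, which makes its values uncertain. In the Hsp90 pair, Hsp90ab1 was at -0.32 and -0.19 in FD and at -0.07 and 0.09 in FR, where its probes had means of -0.01 and 0.01. Hsp90aa1, on a marked spot, was at 0.31 and -0.09 in FD and 0.02 and -0.26 in FR.

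Hsf1, the regulator of the heat shock response, was at -0.18 and -0.28 in FD and at -0.24 and -0.52 in FR, and a second measured probe gave the same FR mean of -0.38. The brightest probe was marked on all 4 arrays and gave -0.14 in FD and 0.12 in FR. Hsf2 had means of 0.03 in FD and in FR. The small heat shock proteins Hspb1 and Cryab had means of -0.09 and -0.11 in FD and of -0.21 and -0.01 in FR. Of the J proteins that work with cytosolic Hsp70, Dnajb1 had means of 0.13 in FD and 0.21 in FR, with arrays on opposite sides of 0 in each, and its brighter, marked probe had 0.08 and 0.30. Dnaja1 had a mean of 0.02 in FD, and its marked probes in FR had means of 0.06, -0.31 and 0.00. Bag3, which links Hsp70 to autophagy, was at 0.00 and 0.19 in FD and at -0.12 and 0.21 in FR, and its second probe had means of -0.01 and 0.00.

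**Figure D4:**
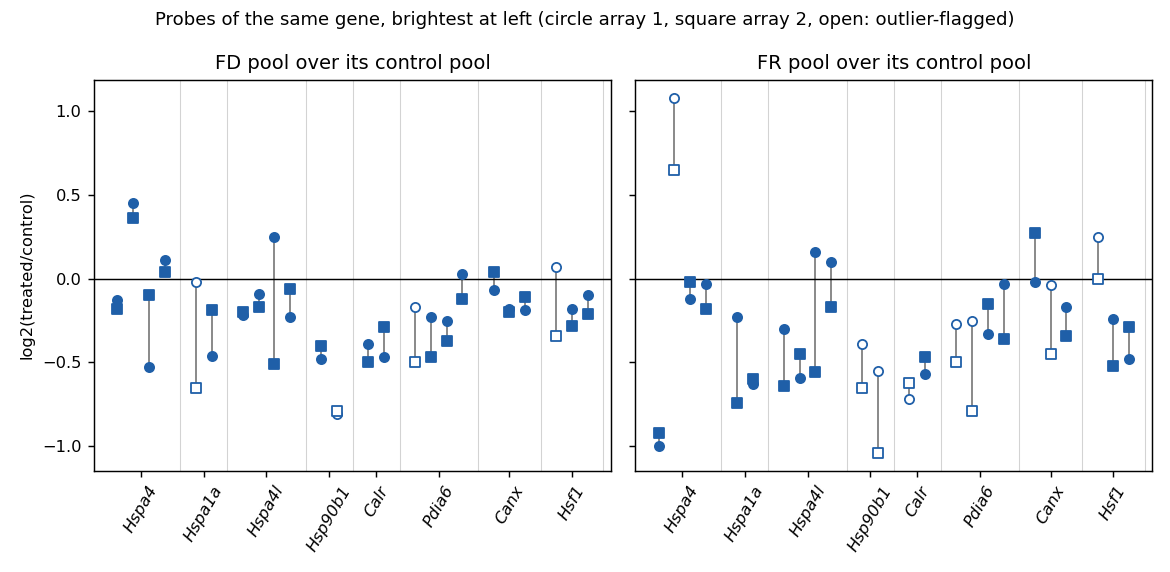
Log2(treated/control) of every probe of 8 chaperone genes, brightest probe at the left of each gene, on array 1 (circles) and array 2 (squares), FD at left and FR at right; open symbols are spots with an outlier flag. The probes of Hspa4 span -0.94 to 0.87 in FR with marked spots kept, while those of Hsp90b1, Calr and Pdia6 stay below 0 in the mean.

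In the mitochondrion, Hspa9, the Hsp70 that pulls proteins across the inner membrane, was at 0.08 and -0.15 in FD and at 0.17 and -0.14 in FR, and its brighter, marked probe at 0.48 and 0.25 in FR. Hspd1 and Hspe1, the chaperonin and its lid, had means of -0.10 and -0.02 in FD and -0.19 and, on a marked spot, -0.16 in FR. Hspd1 was the one mitochondrial member below 0 on all 4 arrays.

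Several probes could be compared within one gene for 13 members in FD and 14 in FR. Their means lay on opposite sides of 0 for 3 in FD (Hspa4, Bag3 and Dnajb9) and for 4 in FR (Hsp90ab1, Dnajc3, Canx and Edem1). With marked spots kept the counts were 4 and 6 of 21, Hspa4 in both. Of the genes that passed in FR, Sdf2l1 and Pdia4 have 1 probe each. The gap between arrays 1 and 2 ran in one direction in FD and FR for 16 of 25 members (64.0%), against 71.8% of all genes. The source of this gap was not tested.

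Set against each other on the same probes, FD and FR differed by at least 1.5-fold on both arrays for 1 of 25 members, Hspa4, which was higher in FD minus FR by 0.86 and 0.74 on A_51_P200477. Of all 16741 genes 0.0777% passed in this direction and 0.275% in the other, in which no member passed. The levels of Hspa4 on this probe were 12.24 in FD and 11.59 in FR, and 12.40 and 12.55 in their controls, so the FR pool stood apart there. A_51_P460676 went the other way, at 0.45 in FD and 1.11 in FR on array 1, as did A_52_P617817 (means -0.32 and -0.07). A_52_P571987 was higher in FD (means 0.08 and -0.10). Averaged over the probes measured on all 4 arrays, which leave out A_51_P460676, the difference was 0.25 and did not pass. Sdf2l1 (FD minus FR 0.18), Pdia4 (0.27) and Xbp1 (0.29) were less far below control in FD than in FR, by less than 1.5-fold.

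In lists of neighbouring pathways the medians lay between -0.10 and 0.03. The sensors and effectors of the unfolded protein response, 15 genes, had medians of 0.01 in FD (14 measured) and 0.03 in FR (13 measured), with none passing and 1 and 4 below 0 on both arrays. Sesn2, an Atf4 target, was highest in FD at 0.39, Ppp1r15a, which restarts translation, was highest in FR at 0.37, and Atf6b was lowest in both, at -0.23 and -0.27. The 25 other folding enzymes of the endoplasmic reticulum had medians of -0.10 in FD and -0.06 in FR with none passing. Of these, 11 of 21 measured in FD lay below 0 on both arrays (2 above), and 7 of 19 in FR (6 above). Serpinh1, a collagen chaperone, was lowest in both at -0.57 and -0.54. The 16 degradation genes had medians of -0.03 and -0.01, from Derl1 at -0.34 to Ufd1 at 0.18 in FD and from Derl2 at -0.61 to Ufd1 at 0.47 in FR. The 27 genes of translocation and signal peptide processing had medians of -0.02 and -0.04, with 3 of 22 and 7 of 19 below 0 on both arrays.

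On the cytosolic side, the chaperonin and prefoldin subunits had medians of -0.02 in FD and 0.02 in FR over 9 genes. The 30 co-chaperones had medians of -0.01 and -0.05, from St13 at -0.42 to Hspa14 at 0.13 in FD and from Chordc1 at -0.71 to Fkbp5 at 0.20 in FR. Dnajb2, a neuronal J protein, passed as lower in FR (-0.68 and -0.62). The mitochondrial chaperones and proteases had medians of -0.02 and -0.04, and Bcs1l, an assembly factor of complex III, passed as lower in FR (-0.87 and -0.89). No other gene of these lists passed in either comparison.

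**Figure D5:**
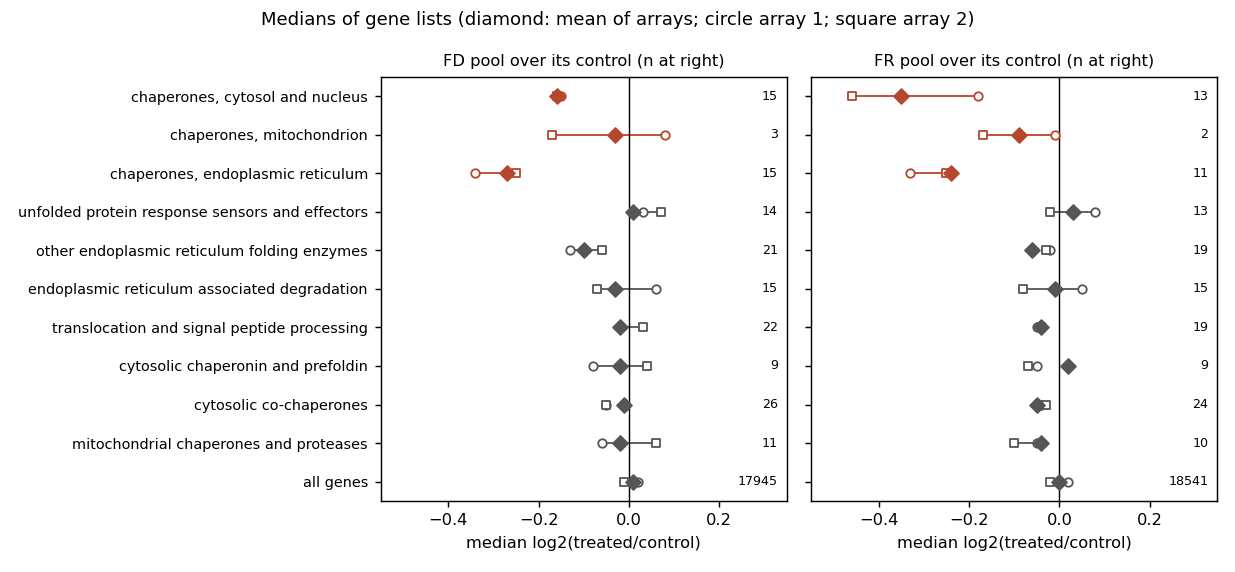
Median log2(treated/control) of the chaperone genes by location (red) and of other pathway lists and all genes (grey), FD at left and FR at right; diamonds are medians of the array means, circles and squares those of arrays 1 and 2, and numbers at the right are genes measured. The cytosolic and endoplasmic reticulum chaperones lie from -0.35 to -0.16, and the other lists from -0.10 to 0.03.

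Transcripts of other tissues differed between the FD pool and its control. Of 11 measured skeletal muscle markers 9 passed as lower in FD (median -1.69, mean level 7.64 in the FD pool against 9.25), as did 2 of 4 pituitary markers (median -0.67), 3 of 5 brown fat markers (median -0.98) and 1 of 4 meninges and fibroblast markers (median -0.24), while the 4 measured liver markers lay above 0 (median 0.66, 2 passing). In FR the muscle, pituitary and brown fat medians were -0.01, -0.03 and 0.07, with 1 of 5 brown fat markers passing as lower. By mean level, the control of FD stood above every other pool for these markers. Muscle averaged 9.25 there, but 7.91 for FR and 7.92 for the FR control. Brown fat averaged 8.63 there, against 7.35 for FD, 7.31 for FR and 7.39 for the FR control. Pituitary averaged 8.25 there, against 7.52, 7.46 and 7.46. The liver and the meninges and fibroblast levels did not show this. All FD ratios are taken against the control of FD. The FR medians of the liver and of the meninges and fibroblast markers were 0.37 (1 of 4 passing as higher) and 0.33 (none of 3 passing). Neuron markers had medians of -0.06 in FD and -0.07 in FR. Both cold-inducible markers passed as higher in FR (median 1.18), and so did the 1 measured in FD (0.76). The part of tissue makeup and of temperature in the chaperone values was not tested.

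Many FR values depend on how the background of array 2 was modelled. Where the model also used the spots with high local background on that array, Sdf2l1 and Pdia4 both lay at -0.08 there and only Hspa4 passed. The FR means were then -0.44 for Sdf2l1, -0.34 for Pdia4, -0.31 for Calr, -0.30 for Hspa2, -0.29 for Hspa1a, -0.21 for Hspa4l, -0.19 for Hsf1 and -0.15 for Hspa8, each over 1.5 times nearer 0 than the values above.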

How the data were processed

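Expression was measured on 4 two-colour Agilent arrays of 60-base probes. Per the file headers, the deposited scanner files give each spot's red and green mean intensity, its median local background intensity, flags, and a log10 ratio of red over green. Version 9.5.3.1 of Agilent Feature Extraction is named in the submitters' processing notes. The deposited value table holds log2 values that equal log2(treated/control) from these ratios (r of 1 over the spots compared, column medians from -0.03 to 0.03).

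From the intensities, background was corrected by normexp with an offset of 50, loess was applied within arrays (limma 3.58.1, R 4.3.3), control spots had weight 0, and outlier-flagged spots and spots whose local background exceeded 2 times the median of their array were left out. The sign of array 2 was turned. A probe counted as measured when red and green signals passed the scanner's background test on each array of the comparison, and a gene was represented by its brightest such probe. Channel levels are log2 signals after Aquantile scaling. The steps were checked on simulated arrays. Of 41174 probes, 26853 were named by accession, 5147 by current symbol and 817 by older symbol.

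Members, lists and alternatives were chosen with earlier results of these data known. Members were named with array values when they passed 1.5-fold, when the mean was at least 0.3 in size with one sign on both arrays, or when probes differed in sign. Array values of some further members, and of all members with marked spots kept, were added after their values were seen. Genes of the pathway lists were named when they passed or, for some lists, when highest or lowest, and marker lists were given by counts and medians. Promoter sequences are from RefSeq (GRCm38.p6) and probe positions from the array files (mm9). Exon and untranslated region annotation was not used here.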

Additional observations from a re-analysis of the deposited data

Results flagged for a closer look

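Dnajb9, a J protein of the endoplasmic reticulum, was the member whose arrays lay on opposite sides of 0 in the 2 comparisons. Its mean log2 ratio was 0.11 in FD, with both arrays above 0, and -0.24 in FR, with both arrays below 0. The difference was not tested, since each condition is 1 pool, and the second FD array lay at only 0.01. Of the other probes of Dnajb9, one had means of -0.10 in FD and -0.03 in FR, and the other had 0.07 in FD and -0.07 in FR with its FR arrays on opposite sides of 0.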

How the results depend on the processing

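No paired analysis was possible because each comparison is 1 dye swap of 1 pair of pools and rests on no test. Members passing 1.5-fold were 0 in FD and 3 in FR. At 1.3-fold they were 3 in FD (Calr, Hsp90b1 and Sdf2l1) and 6 in FR. The scanner's own log ratios and the deposited table each gave 1 in FD, Sdf2l1. In FR 1 passed with the background model fitted on all spots, 0 with median centring and 7 with outlier-flagged spots kept, a setting chosen after seeing the data. Single arrays gave 1 to 2 in FD and 4 to 5 in FR. FD minus FR had 1 such member and 0 with the mean over probes. Shares of all genes were counted only at 1.5-fold and by side of 0, in the main setting and with flagged spots kept. Counts of members under any other rule or setting in this section have no such share to be read against. Members below 0 on both arrays were 23 in FD and 17 in FR, and 1 and 6 with median centring. The cause was not tested. The FD median of -0.21 became -0.20 without background correction, -0.14 with median centring, -0.23 with the scanner's ratios and with the deposited table, -0.16 with the mean over probes, -0.16 for probes well above background on all 4 arrays, -0.14 with flagged spots kept, and -0.18 on either array alone. The FR median of -0.24 became -0.14 with the background model fitted on all spots and -0.33 with median centring, and ranged from -0.25 to -0.19 on single arrays. Alternatives were compared for 23 values, those that passed 1.5-fold and FD or FR means of at least 0.3 in size. Of these, 10 moved beyond the technical spread with median centring, 7 with the scanner's ratios and 5 with the background model fitted on all spots. Over all 248 alternatives of these values 1 changed side: Hsf1 in FR was 0.12 with flagged spots kept, where another probe is brightest. The values were chosen for their distance from 0 in these data, so few changes of side say little, and members nearer 0 were not counted. Side was read from the mean of the arrays used, so arrays on opposite sides of 0 do not count as a change. The number of arrays limits the precision.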
